A study of Mus musculus with 6 samples.

Results

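The 53 genes described here are the Wnt ligands, the receptors that bind them and the secreted proteins that tune the signal. They were chosen by gene symbol from the 24288 symbols of the deposited table, with earlier results of these data known. The rule took every Wnt or Fzd gene, Sfrp1, Sfrp2, Sfrp4 and Sfrp5, Dkk1 to Dkk4, Rspo1 to Rspo4 and Lgr4 to Lgr6. It also took Wif1, Lrp5, Lrp6, Ror1, Ror2, Ryk, Porcn, Wls and Notum. There were 19 ligands, 2 genes for ligand secretion, 10 Frizzled receptors, 5 co-receptors of the Lrp, Ror and Ryk types, 3 Lgr receptors, 4 R-spondins and 10 secreted inhibitors.

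Wnt proteins are lipid-modified signals. The acyltransferase Porcn attaches the lipid and the carrier Wls takes the ligand to the cell surface, where Frizzled receptors together with Lrp5 or Lrp6 start beta-catenin signalling, while Ror1, Ror2 and Ryk serve beta-catenin-independent branches. R-spondins bind Lgr receptors and spare Frizzled and Lrp from removal, whereas Sfrp, Dkk, Wif1 and Notum proteins restrain the signal. In the mouse epiblast, Wnt signalling acts with Nodal, whose message is carried by Smad2 and Smad3, to set up the primitive streak.

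RNA was sequenced from day 2 epiblast-like cells (EpiLCs), a culture model of the epiblast just after implantation. Wild-type (WT) libraries came from 3 separate differentiations of the CCE embryonic stem cell line, and the double knockout (DKO) libraries from 3 differentiations of clone KT15.1F6, which is homozygous for the Smad2 tm1Rob allele and for a CRISPR-made Smad3 allele. Both genotypes are of the 129/Sv//Ev strain. All 6 cultures had been kept as stem cells with 1 µM PD0325091, a Mek inhibitor, 3 µM CHIR99021, a Gsk3 inhibitor that itself turns on beta-catenin signalling, and 1000 U/ml LIF, and were then grown for 48 h with 20 ng/ml activin A and 12 ng/ml Fgf2. Each genotype is 1 line, so the knockout and any other difference between the lines cannot be told apart, and Smad2 knockout cells without the Smad3 change were not analysed here.

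The libraries held 57644143 to 63046034 reads over 1 entry per gene, and the median coefficient of variation of genes with a mean of at least 100 was 3.16% in WT and 3.07% in DKO. Smad3 fell from 839 ± 37.0 to 23.6 ± 6.16 normalized reads (SD, n = 3 each), while Smad2, whose allele need not lower its RNA, read 4520 ± 86.3 in WT and 5062 ± 109 in DKO. Epiblast markers summed to 108768 to 112792 normalized reads per library in WT and 105266 to 106799 in DKO. Most of that sum was Dnmt3b (70390 in WT and 65421 in DKO). Of the 7 epiblast markers 2 were lower in DKO, Fgf5 (3235 ± 12.6 to 798 ± 23.0) and Pou3f1 (6064 ± 147 to 3948 ± 161), 1 was higher, Sox2 (2798 ± 46.0 to 7741 ± 110), and Pou5f1, Otx2, Dnmt3b and Utf1 were under the fold threshold. A normalized read is a read divided by the size factor of its library, with no correction for gene length. Reads were counted over whole gene bodies, introns included, so levels of different genes are compared per kb of gene body. For some genes the same reads divided by exon length are given as well. Shares of reads and ratios of reads between genes are given only to compare the genotypes.

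**Figure D1:**
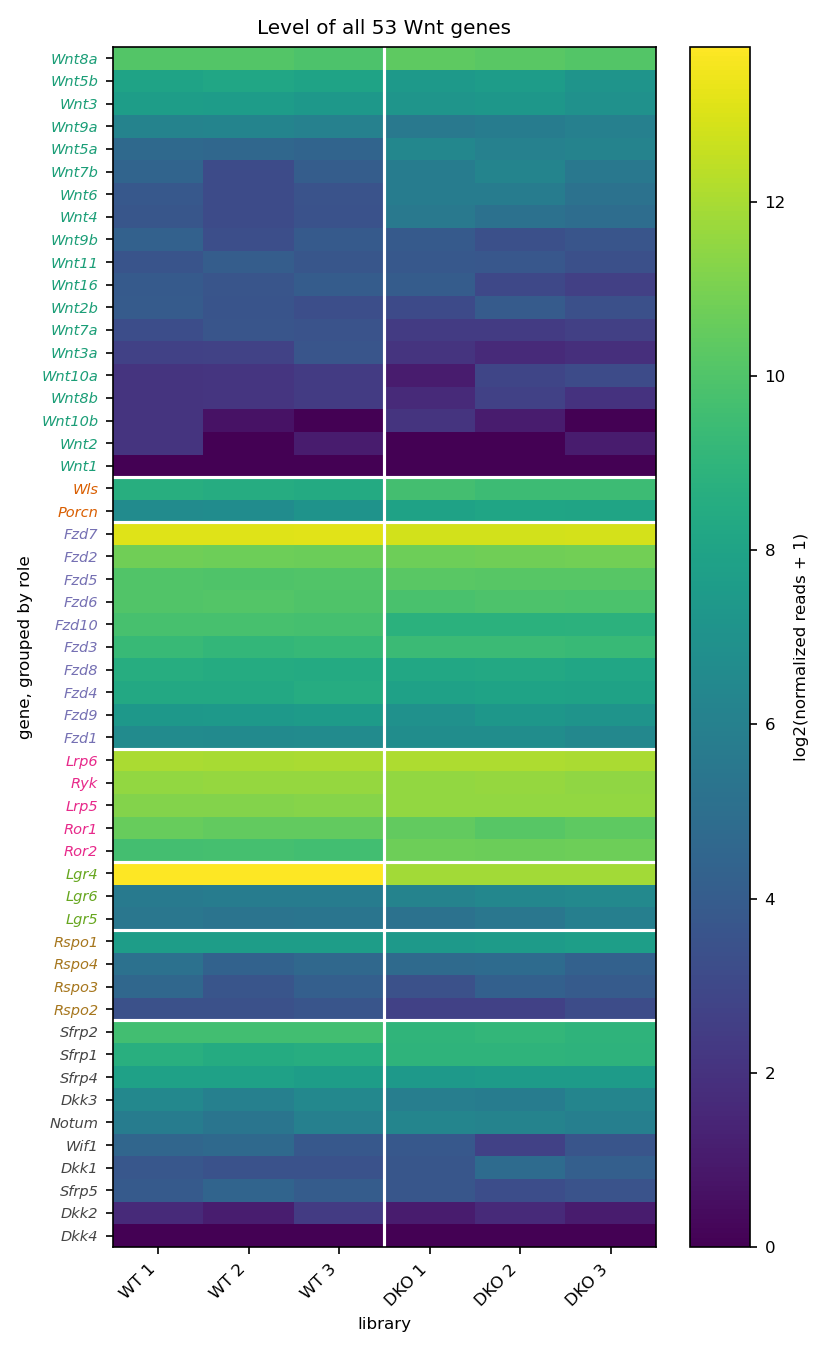
Each row is 1 of the 53 Wnt genes and each column 1 library, with colour giving log2(normalized reads + 1). Rows are grouped by role (from the top: ligands, secretion, Frizzled, co-receptors, Lgr, R-spondins, inhibitors) and ordered by mean within a role, and Lgr4 and Fzd7 carry the most reads while Wnt1 and Dkk4 have 0 in all 6 libraries.

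Expression was high enough for a test in 46 of the 53 genes. A gene is called changed here when its Benjamini-Hochberg adjusted p over the 17038 genes tested was under 0.05 (limma on log2(value + 1)) and its fold change was over 1.5. By that rule 13 of the 46 changed, or 28.3%, beside 15.4% of all genes tested. Lower in DKO were 6 of them, with 8.04% of all genes lower, and higher were 7, with 7.35% of all genes higher. The median log2 fold change was -0.13 over the 46 genes and 0.00 over all genes. At an adjusted p under 0.05 without the fold threshold, 29 of the 46 passed, 15 lower and 14 higher, where 53.4% of all genes passed. The WT and DKO values did not overlap in 29 of the 46, where 59.0% of all genes had values that did not overlap.

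By role, ligands gave 3 lower and 4 higher of 14 tested, and both secretion genes were higher. The 10 Frizzled genes gave 1 lower, the 5 co-receptors 1 higher, the 3 Lgr receptors 1 lower, the 4 R-spondins none and the 8 inhibitors tested 1 lower.

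**Figure D2:**
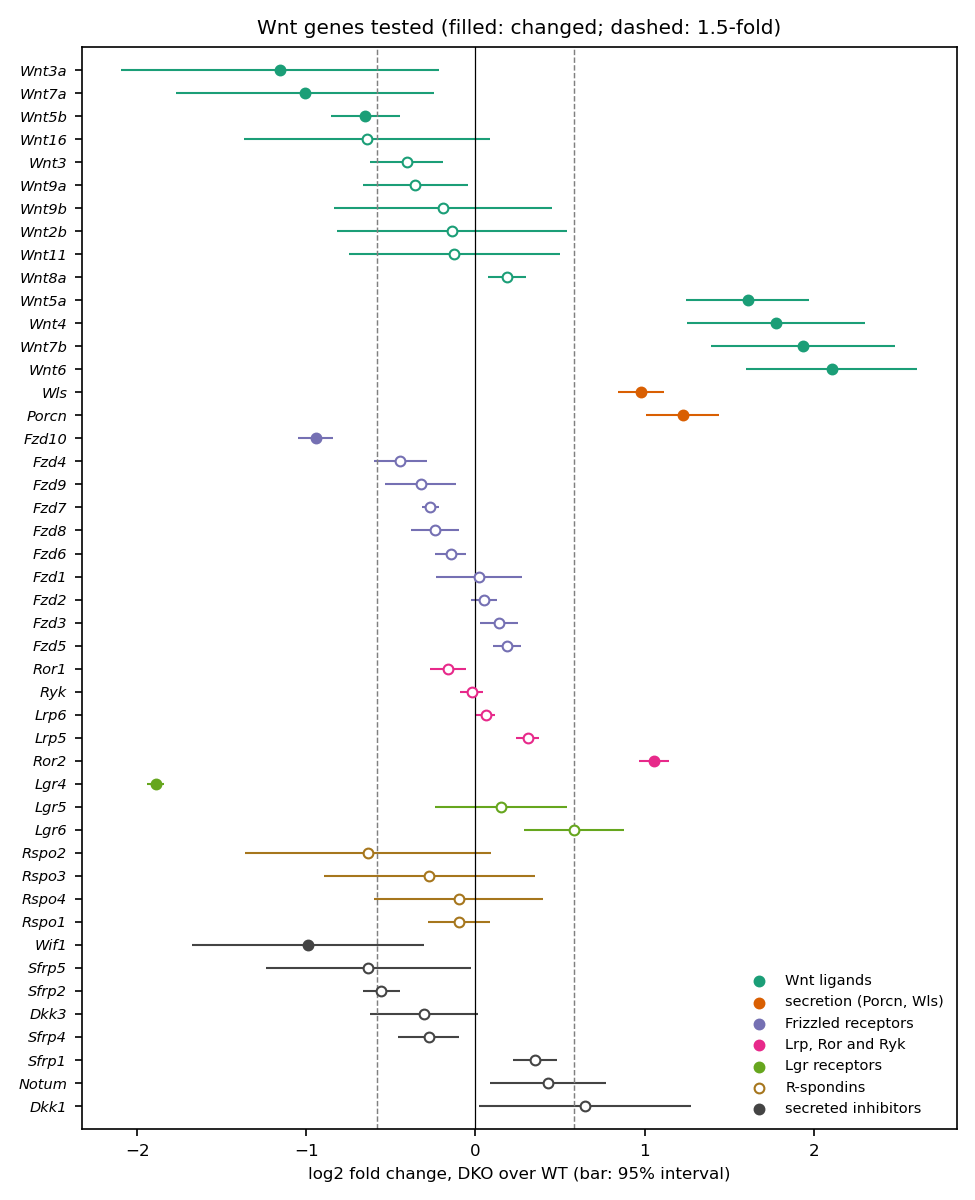
Log2 fold change of DKO over WT for the 46 Wnt genes tested, with the 95% interval from limma as a bar, genes in rows coloured by role, filled points for the 13 changed genes and dashed lines at a fold change of 1.5. Lgr4 at -1.89 lies farthest to the left and Wnt6 at 2.11 farthest to the right, while R-spondins and most Frizzled genes lie between the dashed lines or have intervals that reach them.

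**Figure D3:**
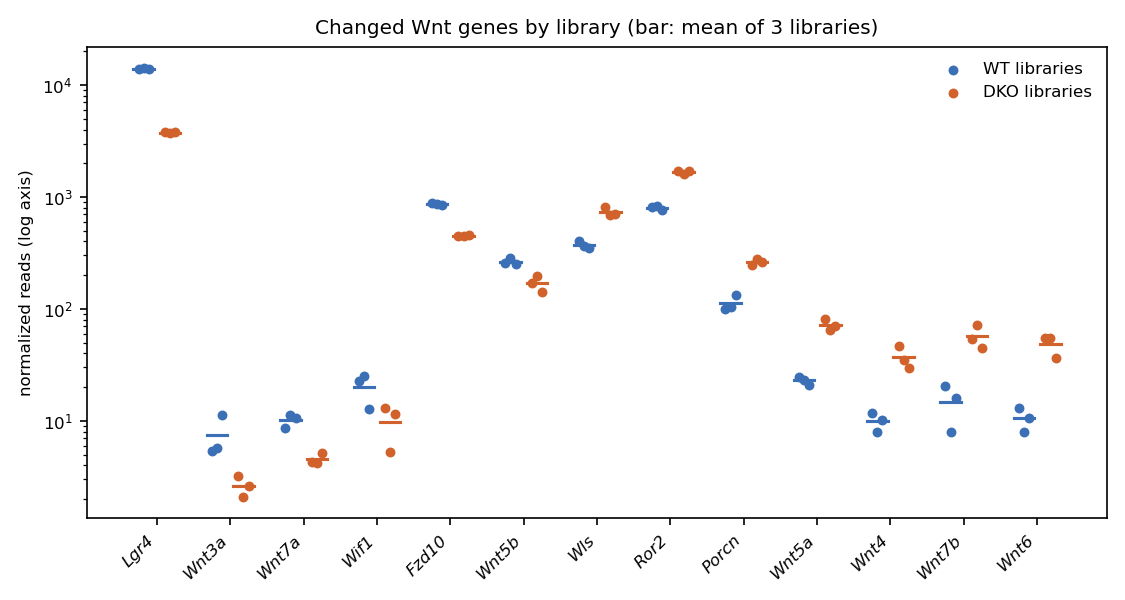
Normalized reads per library, on a log axis, for the 13 changed Wnt genes ordered by fold change, with blue points for WT, orange points for DKO and a bar at each mean of 3 libraries. The groups are apart for 12 genes, and for Wif1 the lowest WT value of 12.8 lies under the highest DKO value of 12.9.

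A few sequences help to place the genes the results turn on. RefSeq promoters of GRCm38.p6 (the mm10 assembly) were found for 34 of the 53 genes, 37 promoters in all, and 10 of the 13 changed genes had one. The 250 bases before the start site were searched on both strands for CAGAC, bound by Smad proteins, AATCCACA, a Foxh1 site (Foxh1 is a partner of Smad2 and Smad3), and CTTTGA, the core of a Tcf site. CAGAC was present in 15 of the 37 promoters (40.5%), beside 42.2% of all 32851 promoters. CTTTGA was in 5 of the 37 (13.5%), beside 13.8%, and AATCCACA in 0 of the 37, beside 0.718%. These shares were near those of all promoters, and a match is a run of letters and not a shown binding site. Below are the windows of Lgr4, which had the largest fall, of Wls, a secretion gene that rose, and of 1 of the 3 Wnt5b promoters, which held both motifs. All are on the plus strand except Wnt5b, sequences run 5′ to 3′ toward the start site, and capitals mark CAGAC or CTTTGA.
Lgr4, chr2:109917397-109917646: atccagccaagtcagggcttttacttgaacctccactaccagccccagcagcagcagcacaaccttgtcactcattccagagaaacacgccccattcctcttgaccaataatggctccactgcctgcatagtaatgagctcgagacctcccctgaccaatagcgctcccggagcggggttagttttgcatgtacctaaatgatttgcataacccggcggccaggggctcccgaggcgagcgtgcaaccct
Wls, chr3:159839400-159839649: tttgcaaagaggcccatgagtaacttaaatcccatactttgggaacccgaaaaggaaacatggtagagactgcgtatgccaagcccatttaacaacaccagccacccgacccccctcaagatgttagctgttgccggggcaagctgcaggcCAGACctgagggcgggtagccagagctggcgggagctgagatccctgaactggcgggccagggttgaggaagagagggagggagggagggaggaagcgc
Wnt5b, chr6:119449387-119449636: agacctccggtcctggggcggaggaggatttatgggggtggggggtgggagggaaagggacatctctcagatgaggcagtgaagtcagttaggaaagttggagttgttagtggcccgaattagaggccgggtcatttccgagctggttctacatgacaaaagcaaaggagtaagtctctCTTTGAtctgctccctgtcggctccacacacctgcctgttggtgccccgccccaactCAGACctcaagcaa
The Lgr4 window held none of the 3 motifs. In Wls the CAGAC began 99 bases before the start site, and in Wnt5b CTTTGA began 71 and CAGAC 14 bases before it. The Lgr4 window had 10 CG steps and the Wls window 8, beside a median of 22 over the 37 promoters and of 6 over all promoters. The RefSeq window of Fzd10, with CAGAC 5 bases before the RefSeq start site, is not shown, because it lies inside the longer GENCODE body by which Fzd10 is placed here.

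Of the ligands, Wnt6, Wnt7b, Wnt4 and Wnt5a rose, Wnt5b, Wnt7a and Wnt3a fell, and Wnt8a stayed under the fold threshold. Wnt8a is a ligand of the early epiblast and primitive streak. It read 1087, 1098 and 977 normalized reads in WT and 1317, 1199 and 1087 in DKO. The groups overlapped, since the lowest DKO library lay below the highest WT library. Its log2 fold change of 0.19 ± 0.06 (SE) had an adjusted p of 0.00604 (limma) but was under the fold threshold. Wnt8a made up 61.5% ± 0.552 of ligand reads in WT and 65.2% ± 1.73 in DKO (SD, n = 3). Per kb of gene body Wnt8a stood at 177 in WT, well above Wnt3 at 4.27, Wnt9a at 2.64 and Wnt5b at 2.37. Divided by exon length, the WT values were 604 for Wnt8a, 112 for Wnt5b, 60.8 for Wnt3 and 21.1 for Wnt9a. Wnt8a was highest by both lengths, but the order of Wnt3, Wnt9a and Wnt5b depended on the length used.

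Wnt6 (chr1:74771892-74785322, plus strand), an epithelial ligand, read 12.9, 7.97 and 10.7 in WT and 54.9, 54.6 and 36.3 in DKO. Every DKO library was above every WT library, a log2 fold change of 2.11 ± 0.25 (adjusted p = 5.67e-08, limma). This was a 4.62-fold rise, and among all genes tested Wnt6 had the 73rd highest log2 fold change. Wnt10a, whose gene lies 6193 bp beyond that of Wnt6, had 2 to 15 reads per library and was not tested. Other genes tested within 1 Mb of Wnt6 numbered 47, with a median log2 fold change of 0.07.

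Wnt7b (chr15:85535437-85581582, minus strand), known from placental and lung development, read 20.4, 7.97 and 16.0 in WT and 53.8, 72.5 and 44.6 in DKO. All 3 DKO libraries were higher than any WT library, at a log2 fold change of 1.94 ± 0.26 (adjusted p = 6.85e-07). Wnt4 (chr4:137277489-137299726, plus strand), a ligand of kidney and gonad development, read 11.8, 7.97 and 10.1 in WT and 46.3, 34.7 and 29.5 in DKO. Its groups were likewise apart, at a log2 fold change of 1.78 ± 0.26 (adjusted p = 1.73e-06).

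Wnt5a (chr14:28504750-28527448, plus strand), the classical ligand of Ror2, read 24.7, 23.3 and 20.8 in WT and 81.8, 64.6 and 70.5 in DKO. The groups were widely apart, at a log2 fold change of 1.61 ± 0.18 (adjusted p = 1.91e-08). Nearly all of the rise lay inside the shorter of its annotated transcripts, which read 21.3 ± 1.70 in WT and 70.0 ± 9.37 in DKO, while the stretch of the longer transcript alone read 1.65 ± 0.606 and 2.29 ± 1.33. The annotation thus places the added reads in the stretch shared by both transcripts.

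These 4 ligands together rose from 58.2 ± 11.3 to 215 ± 29.7 normalized reads, and from 3.40% ± 0.655 to 11.6% ± 0.587 of all ligand reads. They kept their calls under all alternative settings that tested them. The sum over all 19 ligands was 1713 ± 98.6 in WT and 1842 ± 169 in DKO, with overlapping libraries. Without Wnt8a the sums were 659 ± 33.2 and 641 ± 67.5, which overlapped as well.

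RNA of trophoblast genes was higher in the same DKO libraries. The summed trophoblast markers ranged from 207 to 227 normalized reads in WT and from 803 to 1007 in DKO, all 7 markers tested (Cdx2, Gata2, Gata3, Tfap2c, Hand1, Krt7 and Ascl2) were changed and higher, and Elf5 was near 0 in all libraries. Visceral endoderm markers summed to 183 to 210 in WT and 260 to 322 in DKO, with 2 of 7 tested higher (Cubn and Hnf4a) and Ttr, Apoa1 and Cer1 too low to test. Cubn read 86.7 in WT and 168 in DKO, and Hnf4a 5.40 and 21.3. Primitive streak markers summed to 371 to 407 and 506 to 555, with 2 lower and 2 higher of 5 tested. Most of that sum was Eomes, which was higher (305 in WT and 469 in DKO), as was Evx1 (5.09 and 23.6). T (45.8 and 15.4) and Mixl1 (24.4 and 7.90) were lower. Fibroblast markers summed to 410 to 431 and 300 to 357, with 1 of 6 tested lower, Col1a2 (174 and 82.7). The part of these other cell types in the ligand changes was not tested, and in bulk RNA a change in the number of cells and in RNA per cell cannot be told apart.

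Among the ligands that fell, Wnt5b (chr6:119432531-119544347, minus strand), a relative of Wnt5a, read 257, 285 and 253 in WT and 171, 196 and 142 in DKO. The groups did not overlap, and the log2 fold change was -0.65 ± 0.10 (adjusted p = 3.82e-06). Without DKO replicate 3 it was -0.53, under the fold threshold. The body of its shorter transcript, which the longer ones also span, read 237 ± 16.3 in WT and 145 ± 19.5 in DKO, whereas the rest of the longest one read 27.5 ± 1.22 and 24.4 ± 11.2. Fbxl14, at 2133 normalized reads, lies inside the Wnt5b body on the opposite strand.

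Wnt3a (chr11:59248033-59290752, minus strand), a canonical ligand of the primitive streak, had 10, 10 and 21 reads in WT and 6, 4 and 5 in DKO before normalization. Wnt7a (chr6:91363981-91411363, minus strand), a limb and neural ligand, had 16, 20 and 20 reads in WT and 8, 8 and 10 in DKO. Both pairs of groups were apart, but by few reads. The log2 fold changes were -1.16 ± 0.46 for Wnt3a (adjusted p = 0.0352) and -1.01 ± 0.37 for Wnt7a (adjusted p = 0.0245). Wnt3a lost its call without WT replicate 3 (adjusted p = 0.195), without DKO replicate 2 (0.0888) and without DKO replicate 3 (0.0618). Wnt7a lost its call without WT replicate 2 (0.0804), WT replicate 3 (0.0679), DKO replicate 1 (0.0514) or DKO replicate 2 (0.0571). With DESeq2 on the reads the adjusted p was 0.0533 for Wnt3a and 0.0560 for Wnt7a. When the reads were halved, because both mates of a pair may have been counted, both genes were too low to test.

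The remaining ligands did not pass both thresholds. Wnt3, the ligand that the mouse embryo needs for the primitive streak, read 204, 192 and 165 in WT and 143, 156 and 124 in DKO. Its groups were apart at a log2 fold change of -0.41 ± 0.10 (adjusted p = 0.00197), under the fold threshold. Wnt3 supplied 10.9% ± 0.604 of ligand reads in WT and 7.66% ± 0.515 in DKO. Wnt9a had a log2 fold change of -0.36 (adjusted p = 0.0513) and Wnt16 of -0.64 (adjusted p = 0.130), which without DKO replicate 1 was -1.04 (adjusted p = 0.0209) and past both thresholds. The 8 other genes tested within 1 Mb of Wnt16 had a median log2 fold change of -0.67, with 5 changed and all 5 lower, while around Wnt5b and Wnt7a on the same chromosome the medians were 0.00 and 0.01 over 19 and 25 genes. Wnt9b, Wnt2b and Wnt11 read 9.07 to 18.3 in WT and 7.53 to 14.7 in DKO, with log2 fold changes from -0.19 to -0.12 and changes of sign when 1 library was left out.

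Wnt1 had 0 reads in every library, which allows up to 3 reads per library by counting error alone. Wnt10b and Wnt2 had 0 to 6 reads per library and Wnt8b 4 to 10, and these were not tested.

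Both genes for ligand modification and release rose. Porcn (chrX:8193850-8206501, minus strand) read 99.9, 105 and 133 in WT and 246, 278 and 264 in DKO. Wls (chr3:159839672-159936023, plus strand) read 402, 365 and 347 in WT and 809, 690 and 697 in DKO. For both, every DKO library was above every WT library. The log2 fold changes were 1.23 ± 0.10 for Porcn (adjusted p = 1.50e-10) and 0.98 ± 0.07 for Wls (adjusted p = 1.74e-12). Their sum went from 484 ± 16.5 to 995 ± 52.8 normalized reads. Porcn was 2.33-fold and Wls 1.97-fold higher. Gm43307 overlaps Wls on the same strand, so reads of the 2 cannot be told apart there.

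Among the Frizzled receptors Fzd10 was the one that changed. Fzd10 (chr5:128600844-128604093, plus strand, 1 exon) read 885, 871 and 848 in WT and 449, 449 and 455 in DKO. The libraries within a genotype were close together and the groups far apart, at a log2 fold change of -0.94 ± 0.05 (adjusted p = 1.20e-14). Per kb of gene body Fzd10 followed Fzd7 and Fzd2 in WT, at 267, whereas in DKO, at 139, it stood below Fzd5 at 165 as well. Divided by exon length, Fzd6 stood at 240 in WT and 217 in DKO, so by that measure Fzd10 in DKO lay below Fzd6 too. The 10 other genes tested within 1 Mb of Fzd10 had a median log2 fold change of 0.05.

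Fzd7, the main Frizzled of pluripotent cells, read 8827, 8775 and 9003 in WT and 7328, 7307 and 7465 in DKO. The groups were apart, though the log2 fold change of -0.27 ± 0.02 (adjusted p = 8.22e-10) was under the fold threshold. Fzd7 provided 58.8% ± 0.518 of Frizzled reads in WT and 56.0% ± 0.396 in DKO. Per kb of gene body it stood at 1957 in WT and 1626 in DKO, and Fzd2, the next, at 464 and 481. Fzd10 over Fzd7, both per kb of gene body, went from 0.137 ± 0.00454 to 0.0853 ± 0.000379.

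The other Frizzled genes had small values in both directions. Fzd4, the receptor of norrin as well as Wnt, had a log2 fold change of -0.44 (adjusted p = 1.81e-05), Fzd9 of -0.32 (0.00969), Fzd8 of -0.24 (0.00553) and Fzd6 of -0.14 (0.00762). Fzd5 had a log2 fold change of 0.19 (adjusted p = 0.000379) and Fzd3, which acts in planar polarity, of 0.14 (0.0334). Fzd2 at 0.05 (0.259) and Fzd1 at 0.02 (0.891) did not pass the adjusted p. The 95% interval of the log2 fold change was -0.03 to 0.13 for Fzd2 and -0.23 to 0.28 for Fzd1. The sum over the 10 receptors was 15073 ± 132 normalized reads in WT and 13145 ± 96.6 in DKO, without overlap. Most of that sum was Fzd7 (8868 in WT and 7367 in DKO), and Fzd10 went from 868 to 451. The sum therefore does not describe the other Frizzled genes.

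Of the 5 co-receptors, Ror2 changed and Ror1, Ryk, Lrp5 and Lrp6 did not pass both thresholds. Ror2 (chr13:53109317-53286124, minus strand), the receptor tyrosine kinase-like partner of Wnt5a, read 817, 827 and 769 in WT and 1706, 1616 and 1696 in DKO. All DKO libraries were far above the WT libraries, with a 2.08-fold higher mean and a log2 fold change of 1.06 ± 0.04 (adjusted p = 2.81e-17). Ror1, its relative, read 1527, 1424 and 1404 in WT and 1425, 1171 and 1314 in DKO. Those groups overlapped at the highest DKO library, and the log2 fold change was -0.16 ± 0.05 (adjusted p = 0.0113). Ror2 over Ror1, both per kb of gene body, was 1.09 ± 0.0468 in WT and 2.55 ± 0.181 in DKO. Divided by exon length, Ror2 stood at 202 and Ror1 at 252 in WT, and at 420 and 226 in DKO. Which of the genes was higher in WT thus depended on the length used.

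Lrp5 and Lrp6, the co-receptors of the beta-catenin branch, had log2 fold changes of 0.31 ± 0.03 (adjusted p = 7.98e-09) and 0.06 ± 0.03 (adjusted p = 0.0752). Lrp5 read 2423, 2359 and 2514 in WT and 2973, 3044 and 3022 in DKO. All DKO libraries of Lrp5 were higher, by less than the fold threshold, and the ratio of Lrp5 to Lrp6 reads went from 0.589 ± 0.0199 to 0.700 ± 0.0206. Ryk, an atypical kinase receptor, had a log2 fold change of -0.02 (adjusted p = 0.584) and a 95% interval of -0.09 to 0.05.

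The largest fall of the 46 genes was that of Lgr4 (chr2:109917647-110014257, plus strand), a receptor of R-spondins. It read 13791, 14062 and 14024 normalized reads in WT and 3783, 3709 and 3793 in DKO. The spread within each genotype was small beside the gap between them. The log2 fold change was -1.89 ± 0.03 (adjusted p = 1.15e-27), a level 3.71-fold lower in DKO. Of the 17038 genes tested, Lgr4 had the 146th lowest log2 fold change. The 7 other genes tested within 1 Mb had a median log2 fold change of 0.06, with 1 changed.

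The share of Lgr4 in Lgr reads was 99.3% ± 0.00687 in WT and 96.7% ± 0.537 in DKO. Lgr5, the stem cell marker, read 43.0, 38.7 and 40.5 in WT and 35.5, 42.6 and 61.2 in DKO, with overlapping groups and a log2 fold change of 0.15 ± 0.19 (adjusted p = 0.531). Lgr6 read 49.96, 54.6 and 54.4 in WT and 70.5, 81.4 and 88.6 in DKO. Its groups were apart and its log2 fold change of 0.58 ± 0.14 (adjusted p = 0.00128) lay just under the threshold, which it passed with edgeR on the reads (0.60). Per kb of gene body Lgr4 stood at 144 in WT and 38.9 in DKO, against 0.435 and 0.657 for Lgr6.

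None of the R-spondins, the secreted partners of these receptors, changed. Rspo1 read 206, 200 and 203 in WT and 171, 190 and 211 in DKO, which overlapped. Its log2 fold change was -0.10 ± 0.09 (adjusted p = 0.384). Rspo2, Rspo3 and Rspo4 had 10 to 64 reads per library and log2 fold changes of -0.64 (adjusted p = 0.136), -0.27 (0.471) and -0.10 (0.751). Rspo2 passed both thresholds when the variance was not allowed to follow the mean (adjusted p = 0.0325).

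Of the secreted inhibitors, Wif1 passed both thresholds. Wif1 (chr10:121033960-121100650, plus strand), which binds Wnt ligands directly, had 42, 44 and 24 reads in WT and 24, 10 and 22 in DKO. The groups met at their edges. Its log2 fold change of -0.99 ± 0.33 had an adjusted p of 0.0141, which became 0.0675 without WT replicate 1, 0.0896 without WT replicate 2, 0.111 without DKO replicate 2 and 0.0984 without the variance trend.

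Sfrp2, a secreted Frizzled-related protein that stood at 96.7 per kb of gene body in WT, above Sfrp4 at 23.3, read 781, 766 and 773 in WT and 512, 559 and 506 in DKO. Its groups were well apart, at a log2 fold change of -0.56 ± 0.05 (adjusted p = 1.18e-09) that lay just under the fold threshold. Without DKO replicate 2 it was -0.60, past the threshold. Sfrp1 read 409, 357 and 379 in WT and 496, 494 and 472 in DKO, all higher, at a log2 fold change of 0.35 ± 0.06 (adjusted p = 3.55e-05). Sfrp4 had a log2 fold change of -0.28 (adjusted p = 0.00909) and Sfrp5 of -0.63 (0.0734). Related inhibitors thus had values of both signs, and none of the 4 passed both thresholds, though Sfrp5 did without the variance trend (adjusted p = 0.0384).

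Notum, an enzyme that removes the lipid from Wnt ligands and a feedback target of the pathway, had a log2 fold change of 0.43 ± 0.17 in overlapping groups, with an adjusted p of 0.0334. Dkk1, which blocks Lrp5 and Lrp6, read 12.4, 10.2 and 10.1 in WT and 11.8, 26.8 and 17.1 in DKO. The lowest DKO library lay within the WT range, and the log2 fold change was 0.65 ± 0.30 (adjusted p = 0.0752). Without DKO replicate 1 it was 0.92 (adjusted p = 0.0188). Dkk3 had a log2 fold change of -0.30 (adjusted p = 0.103). Dkk2 had 2 to 8 reads per library and Dkk4 0 in all, and neither was tested. The sum over the 10 inhibitors was 1560 ± 48.1 in WT and 1370 ± 35.7 in DKO, without overlap. Sfrp2 held the most reads of them (773 in WT and 526 in DKO). Means of Sfrp1, Notum and Dkk1 were higher in DKO, and those of Wif1, Sfrp4, Sfrp5, Dkk2 and Dkk3 were lower.

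**Figure D4:**
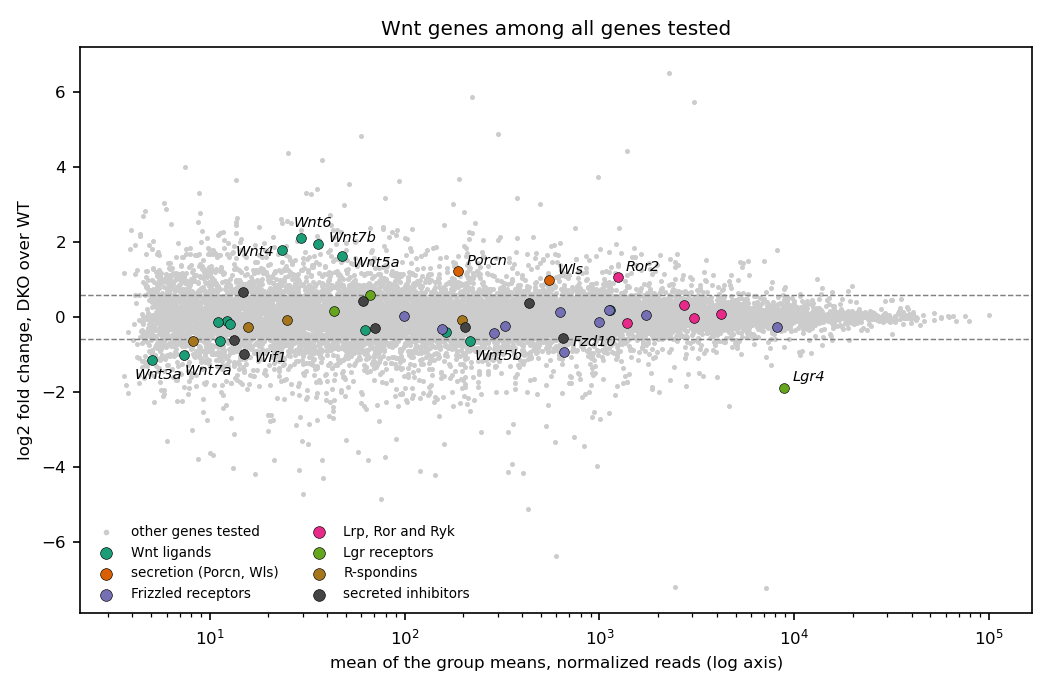
Log2 fold change of DKO over WT against the mean level on a log axis, with grey points for all other genes tested, coloured points for the 46 Wnt genes by role, dashed lines at a fold change of 1.5 and the 13 changed Wnt genes named. Among the Wnt genes, Lgr4 combines a high level with a log2 fold change of -1.89, while the 4 ligands that rose lie at group means under 100 normalized reads.

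Nearest to the fold threshold among genes that passed the adjusted p were Lgr6 and Sfrp2 outside it, at 0.58 and -0.56, and Wnt5b inside it, at -0.65. The next inside were Fzd10 at -0.94 and Wls at 0.98.

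The rest of the pathway was described with 4 further lists, also chosen with earlier results of these data known. In these lists 14 genes changed. Of the genes tested in each list, 5% of intracellular transducers and 30.8% of Tcf/Lef factors and feedback targets changed. For other surface and secreted regulators the share was 42.1%, and for planar cell polarity genes 8.33%. These shares stand beside 15.4% of all genes tested. Of 20 intracellular transducers, 1 was higher, the beta-catenin cofactor Bcl9l (log2 fold change 0.79 ± 0.08, adjusted p = 1.57e-09), and none was lower. The median of that list was -0.05. Beta-catenin itself, Ctnnb1, had a log2 fold change of 0.23 (adjusted p = 2.12e-09).

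Of 13 Tcf/Lef factors and feedback targets tested, 4 were lower and none higher. The 4 were Tcf7l1, a repressor of Wnt targets (log2 fold change -0.76, adjusted p = 2.24e-14), the feedback inhibitors Nkd2 (-0.73, 2.06e-06) and Apcdd1 (-0.67, 2.03e-07), and the target Sp5 (-1.17, 0.00403). Axin2, the target most often used to read beta-catenin signalling, had a log2 fold change of 0.54 ± 0.05 (adjusted p = 8.42e-10), of the opposite sign and under the fold threshold. Znrf3 and Rnf43, the ubiquitin ligases that R-spondins and Lgr receptors oppose, had log2 fold changes of 0.06 (0.265) and 0.04 (0.911). The list as a whole therefore held values of both signs, with a median of -0.16.

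Of 19 other surface and secreted regulators tested, 5 were lower and 3 higher. Lypd6, which promotes Lrp6 activation, had the lowest value (1333 in WT and 144 in DKO, with -3.20 ± 0.07 on the log2 scale and an adjusted p of 1.47e-22). Kremen2, Trabd2b, Adgra2 and Tspan12 were the other lower genes, with log2 fold changes from -0.93 to -0.64. The Dkk co-receptor Kremen1 was higher at 1.56 and its relative Kremen2 lower at -0.93, and the heparan sulfate proteoglycans Sdc4 and Gpc4 were higher at 1.11 and 1.09. Of 12 genes of planar cell polarity, the branch that Ror2 serves, Celsr3 was lower at -0.71 and none was higher, with a list median of -0.08.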

How the data were processed

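The samples were 3 WT and 3 DKO libraries, grouped by the genotype in the labels. According to the methods, the authors depleted ribosomal RNA, made strand-specific libraries, removed remaining ribosomal reads with bowtie2, aligned to mm10 with STAR, removed duplicates with Samtools and counted reads over refGene gene bodies, with DESeq2 for normalization; versions are not given in the sources used here. The deposited table holds a signal per entry, that is reads divided by 1 size factor per library (1.76 to 1.93). Whole reads were recovered for 100% of values within 0.05 of a whole number. Of the values of 1 to 20 reads, 70.5% to 73.9% were even, so that both mates of a pair may have been counted. The authors' own comparison table (means, fold changes and p-values) was not used.

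The 138 rows without a symbol (0.517% of reads) were left out, and the entry with the highest total stood for each gene. Genes passing filterByExpr of edgeR 4.0.16 on the recovered reads were tested with limma 3.58.1, run in R 4.3.3, after taking log2(value + 1) and allowing the variance to follow the mean, so fold changes of weakly expressed genes are understated. The script was tested on simulated data. Alternatives included edgeR and DESeq2 1.42.0 on recovered reads, other normalizations, filters and pseudocounts, and leaving out each library; they are given in the closing section. P-values measure the spread between differentiations of 1 line per genotype. With each read taken as independent, the variance between libraries of the same genotype was 3.44 to 5.71 times that of read sampling. If both mates of a pair were counted, the sampling noise was larger and these ratios are overstated.

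Reads appear to have been counted by strand and over introns. Among 113 genes nested in a host gene on the same strand, the host's reads were below those of the nested gene in 4, while among 43 on the opposite strand they were below in 25. Of the 53 members, 18 overlap another annotated gene, and same-strand partners (of Wls, Fzd3, Ror1, Rspo3, Ryk and Wnt2b) can share reads with them.

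All members were named with values or by class, of other genes those on the lists, Smad2 and Smad3. The members and lists were chosen with earlier results of these data known, and no identity between proteins was computed. Positions come from GENCODE and promoters from RefSeq, both on GRCm38, and the surrounding genes and the halved reads were added after seeing the data.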

Additional observations from a re-analysis of the deposited data

How the results depend on the processing

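The 13 changed genes (6 lower, 7 higher) and the 14 changed genes of the other pathway lists were recomputed under 23 alternative settings. Of the 13, 7 (Lgr4, Ror2, Porcn, Wnt4, Wnt5a, Wnt6 and Wnt7b) passed in every alternative that tested them, and none of the 13 changed sign. Fewer genes remain by construction when a mean of 100 normalized reads is required for testing, which left 6 Wnt genes (3 lower, 3 higher) and 9 of the other lists. Without the fold threshold there were 29 (15 lower, 14 higher) and 43. A fold change over 2 left 9 (3 lower, 6 higher) and 5 of the other lists, and treat, which tests against a fold change of 1.5, left 9 (2 lower, 7 higher) and 5 of the other lists. Leaving out 1 library at a time gave 11 to 15 changed Wnt genes, 4 to 6 lower and 7 to 9 higher, and 13 to 14 of the other lists.

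Libraries with the same differentiation number were not treated as paired in the main fit. The correlations of their deviations were 0.00881, -0.0293 and 0.0365, which cannot show whether the cultures were run side by side. With the replicate block 13 Wnt genes (6 lower, 7 higher) and 15 of the other lists changed. With the reads halved, since both mates may have been counted, edgeR called 13 (4 lower, 9 higher). Wnt3a and Wnt7a had too few halved reads to be tested. On the reads as recovered, edgeR called 14 (6 lower, 8 higher) and DESeq2 12 (4 lower, 8 higher). Without the variance trend 14 changed (7 lower, 7 higher), with Rspo2 and Sfrp5 gained and Wif1 lost.

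In 7 genes that had not changed, with log2 fold changes of at most 0.19 in size, the sign depended on which library was left out. The lowest and highest values were -0.44 and 0.026 for Wnt9b, -0.39 and 0.055 for Wnt2b, -0.23 and 0.032 for Wnt11, -0.037 and 0.14 for Fzd1, -0.052 and 0.0022 for Ryk, -0.064 and 0.32 for Lgr5, and -0.29 and 0.11 for Rspo4. The cause was not tested. Wnt3a, Wnt7a and Wif1 had 4 to 44 reads per library, and lost their calls in 6 or 7 alternatives each, while Wnt4, Wnt6 and Wnt7b, with 14 to 38 reads per WT library, kept theirs in every alternative that tested them.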
